A study of Homo sapiens with 6 samples.

Results

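The T cell receptor V, D, J and C genes are the segments from which T cells assemble their antigen receptor, and their RNA was described here in a leukaemia line, RPMI-8402, with and without induced guides against MYC and MYCN. Members were chosen by gene symbol: a row belonged to the set when its symbol started with TRA, TRB, TRG or TRD followed by V, D, J or C and a number or nothing more. The rule found 282 of 63769 rows of the count table, with 226 distinct symbols, since 56 symbols stood on more than 1 row. The rule used no measured value, but the set was proposed with results of this same comparison in view, so its counts below are a description read against all genes. At least 1 count in any library was found on 92 rows and at least 10 counts on 61, while 190 rows held 0 counts in every library. A filter on low counts left 36 members for testing, and the other 246 are described by their counts only.

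RPMI-8402 is an established human T-cell acute lymphoblastic leukaemia line, and all 6 libraries came from a stable Cas9-expressing derivative grown with tetracycline-free serum. The 3 control libraries (DMSO, genotype label control) received solvent, and the 3 treated libraries (DOX, genotype label MYCN_knockout) received doxycycline for 72 hours to switch on guide RNAs; the series text gives MYC and MYCN as targets, and the treatment text gives MYC alone. Total counts ran from 28602145 to 29204148 per library, so 3 counts, taken as the floor, are 0.101 to 0.107 CPM (counts per 1000000, scaled with TMM factors). The libraries are called DMSO 11, DMSO 23, DMSO 35, DOX 12, DOX 24 and DOX 36, after numbers in the column names of the count table. Whether the 3 libraries of a group are separate cultures is not given, so the spread behind each p-value may be technical. Cells with doxycycline and no guides were not analysed here, and effects of drug and guides cannot be told apart. RNA of the targets was 245 CPM in DMSO and 200 in DOX for MYC (log2 fold change -0.30, SE 0.12, edgeR adjusted p = 0.176) and 91.1 and 50.0 CPM for MYCN (-0.87, SE 0.13, edgeR adjusted p = 0.0726, DESeq2 adjusted p = 1.08e-05). Groups overlapped for MYC and not for MYCN, and without DMSO 11 edgeR gave -0.20 (adjusted p = 0.0566) and -0.98 (adjusted p = 2.26e-07); an RNA count does not show whether the gene was cut.

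A T cell receptor is a pair of chains, either alpha with beta or gamma with delta, and each chain gene is joined in the developing T cell from 1 V, sometimes a D, and 1 J segment that is then spliced to a constant gene. The joining deletes or inverts the DNA between the chosen segments, usually starts with the delta, gamma and beta loci, and reaches the alpha locus last, which removes the delta locus lying inside it. Unjoined segments can also be transcribed from their own promoters, so RNA of a segment is not in itself RNA of a joined receptor, and leukaemias of T cell origin keep the joins of the cell they arose from.

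DMSO 11 was unlike DMSO 23 and DMSO 35. Over the 36 tested members its root mean square log2 distance was 0.94 to DMSO 23 and 0.83 to DMSO 35, but 0.50 to 0.54 to the DOX libraries, against 0.43 between DMSO 23 and DMSO 35 and 0.33 to 0.39 within DOX. The same held over the 9311 tested genes with at least 10 CPM on average, where DMSO 11 lay 0.43 and 0.41 from the other DMSO libraries and 0.18 to 0.21 from DOX. Results are therefore given with and without DMSO 11. It was singled out on these same values as the DMSO library nearest to DOX. Adjusted p-values without DMSO 11 therefore describe chosen controls and are not independent support. With any other single library left out, edgeR called 0 members.

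The sequences below show what the counts had to tell apart. The paired constant genes of the beta locus are near copies, as are those of the gamma locus, so the first 120 bases of each constant region are printed 5′ to 3′ with the bases that differ within the pair in capitals. The 3 most counted beta J segments follow, with the 4 codons of the Phe-Gly-X-Gly motif that marks a J segment in capitals. The last is the first 240 of the 344 coding bases of TRBV19, the most counted V gene, with its first coding exon, which encodes most of the leader peptide, in capitals. All come from GENCODE 29 transcripts (GRCh38) and are written on the strand of the gene, with beta on the plus and gamma on the minus strand of chromosome 7.
TRBC1: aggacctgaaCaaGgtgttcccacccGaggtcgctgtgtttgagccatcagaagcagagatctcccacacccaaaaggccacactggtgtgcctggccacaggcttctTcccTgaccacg
TRBC2: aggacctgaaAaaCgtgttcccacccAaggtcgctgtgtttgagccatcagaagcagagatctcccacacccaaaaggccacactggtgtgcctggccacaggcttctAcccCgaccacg
TRGC1: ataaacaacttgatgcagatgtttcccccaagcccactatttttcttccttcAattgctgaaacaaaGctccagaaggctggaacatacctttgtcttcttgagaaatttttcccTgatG
TRGC2: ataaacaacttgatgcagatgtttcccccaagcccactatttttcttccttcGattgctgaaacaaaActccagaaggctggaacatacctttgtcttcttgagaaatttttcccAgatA
TRBJ2-1: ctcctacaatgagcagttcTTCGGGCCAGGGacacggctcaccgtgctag
TRBJ2-3: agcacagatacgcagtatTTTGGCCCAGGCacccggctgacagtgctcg
TRBJ2-7: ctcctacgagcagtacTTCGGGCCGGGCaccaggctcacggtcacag
TRBV19: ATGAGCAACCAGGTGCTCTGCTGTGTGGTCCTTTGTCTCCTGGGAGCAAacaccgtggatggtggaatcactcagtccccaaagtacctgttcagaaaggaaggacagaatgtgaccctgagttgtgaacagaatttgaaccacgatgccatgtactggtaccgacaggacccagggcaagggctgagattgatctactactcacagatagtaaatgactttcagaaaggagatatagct

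TRBC1 and TRBC2 differed at 5 of these 120 bases and at 18 of the 530 coding bases compared, and TRGC1 and TRGC2 at 4 of 120. Of the 100-base windows of each gene's longest transcript, 88.8% were found in no other T cell receptor gene for TRBC2, 76.0% for TRGC2 and 91.7% for TRGC1. Genes outside the receptor loci were not searched. The same share was 100% for TRBV19, TRBV7-3, TRGV10, TRAC and TRDC, 99.5% for TRGV3, 90.3% for TRGV4 and 87.4% for TRGV2. Counts of the paired constant genes are therefore uncertain where reads fell in shared windows. The J motif was found by translation in 73 of the 83 J genes of GENCODE 29 (88.0%) and in 7 of the 8 TRBJ2 segments. A J segment here is 46 to 53 bases long, shorter than a 100-base read.

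Beta genes held 87.0% of the 135449 counts on the members, gamma genes 11.7%, alpha genes 0.876% and delta genes 0.365%. TRBC2 alone (ENSG00000211772), 1 of the beta constant genes, held 102413 counts, which is 75.6%. Per length, TRBC2 stood at 821 CPM per kb of exon in DMSO and 739 in DOX. In DMSO it was followed by TRBV19 at 145, the J segment TRBJ2-7 at 54.5, the gamma constant gene TRGC2 at 51.3 and TRGV10 at 41.5 CPM per kb. In DOX it was followed by TRBV19 at 54.9, TRBJ2-7 at 50.1, TRBJ2-3 at 37.7 and TRGC2 at 30.4 CPM per kb. TRBC2 and TRBV19 thus led in both groups. TRBJ2-3 stood at 37.5 CPM per kb in DMSO, so TRGC2 lay above it in DMSO and below it in DOX. The J values rest on exons of 47 bases (TRBJ2-7) and 49 bases (TRBJ2-3), shorter than a 100-base read. Their rank against longer genes is therefore uncertain, and without division by length TRBJ2-3 stood at 1.84 CPM in both groups. The alpha constant gene TRAC stood at 1.07 CPM per kb in DMSO and 1.56 in DOX, and the delta constant gene TRDC at 1.95 and 2.74. By its constant genes the line's receptor RNA was thus mostly beta and then gamma, with alpha and delta low. The plot of each library's level shows these ranges.

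**Figure D1:**
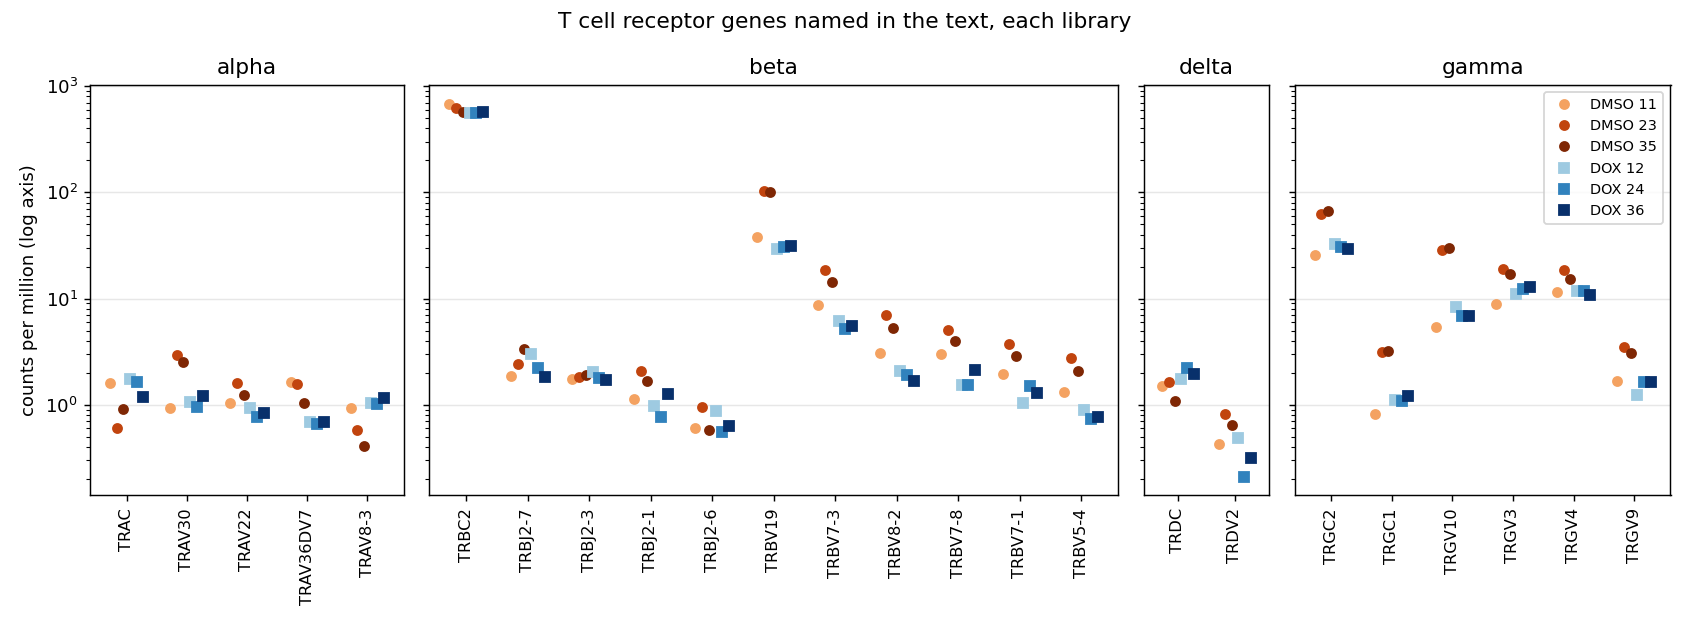
Level of each named T cell receptor gene in CPM (log axis), in panels by locus, with 1 point per library: circles for the 3 DMSO libraries and squares for the 3 DOX libraries. TRBC2 lay between 553 and 684 CPM in all 6 libraries, while TRBV19, TRGC2 and TRGV10 were high in DMSO 23 and DMSO 35 and low in DMSO 11 and the DOX libraries.

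Counts were not spread evenly along the loci. In the beta locus, which lies on chromosome 7, rows were ordered only where the gene ID was in GENCODE 29. Of these, 29 of the 32 from TRBV1 to TRBV19 (neither end included) held counts, 3973 in all, and TRBV19 itself stood far above them. Beta V rows matched by symbol alone were left out: TRBV6-2, TRBV7-2, TRBV7-9, TRBV10-3, TRBV11-3, TRBV12-3, TRBV12-4, TRBV12-5 and TRBV13 to TRBV18. By name they fall between TRBV1 and TRBV19, and all held 0 counts. Of the 17 member rows matched by symbol alone, 16 held 0. These rows therefore do not show whether counts ran through the whole stretch. All 10 ordered rows between TRBV19 and TRBJ2-1 held 0 counts in every library. They are TRBV20-1, TRBV21-1, TRBV22-1, TRBV23-1, TRBV24-1, TRBV26, TRBV27, TRBV28, TRBV29-1 and a row named TRBV25-1 in the deposited table whose Ensembl ID GENCODE 29 gives to TRBC1. All 7 J rows from TRBJ2-1 to TRBC2 (TRBJ2-1 not included) held counts, 1068 in all. No TRBJ1 row and no beta D row was in the set, so those segments are not described. TRBV30, which lies beyond TRBC2, held 54. The 8 beta V rows copied to chromosome 9 (orphons) all held 0. A row of 0 counts lay under the floor in each library, which is not shown to be absence of RNA. Beta V rows with no match in GENCODE 29, among them TRBV7-8, could not be placed in this order.

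**Figure D2:**
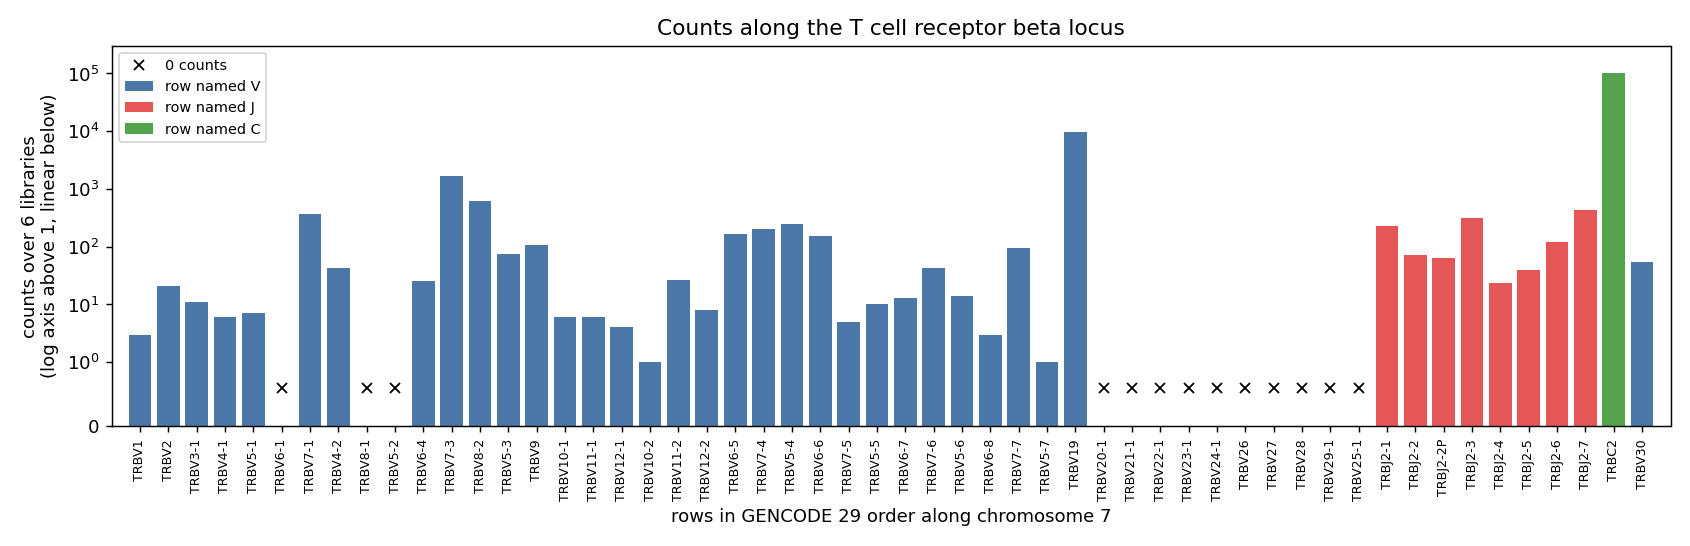
Counts summed over 6 libraries (log axis above 1) for beta rows matched to GENCODE 29 by gene ID, in order along chromosome 7. Bars are coloured by the segment class in the row's name, with crosses for rows at 0 counts. Beta rows matched by symbol alone held 0 counts and are not drawn. TRBV19 and TRBC2 stand highest, with the 10 rows from TRBV20-1 to the row named TRBV25-1 at 0 between TRBV19 and the J segments.

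The gamma locus, also on chromosome 7, had few rows to compare. All 9 rows between TRGV1 and TRGV10 held counts, 5694 in all, while the 2 rows between TRGV10 and TRGC1, TRGJ1 and TRGV11, held 0. In the alpha locus on chromosome 14, all 61 J rows held 0 counts in every library, 26 of 54 V rows held 965 counts together, and TRAC held 221. Delta genes, which lie inside the alpha locus, had 292 counts on TRDC, 104 on 2 of 3 V rows, 55 on 2 of 3 D rows and 44 on 3 of 4 J rows. The beta constant rows beside TRBC2, a row for TRBC1 and a second row for TRBC2, held 0 counts in every library. Their IDs are not in GENCODE 29, and 62 of the 64 rows with such IDs held 0. These 2 rows therefore do not show whether TRBC1 was expressed. The row named TRBV25-1, whose ID GENCODE 29 gives to TRBC1, also held 0 counts in every library. Which of the 2 genes that row counted is not settled here. So V segments of all 4 loci held counts, most of them beta and gamma, and no alpha J segment did.

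Most V genes stood lower in DOX than in DMSO, but edgeR called no member over all genes, and neither did limma voom. It called 5 of 15949 genes at an adjusted p under 0.05 (0.0313%), and the smallest adjusted p of a member was 0.0846. An unadjusted p under 0.05 was reached by 22 of the 36 tested members and by 26.0% of all tested genes; the 22 were 11 beta V, 4 alpha V, 3 gamma V, 2 gamma C, 1 beta J and 1 delta V. DESeq2 called 7 members lower and 0 higher of the 29 it gave an adjusted p, where it called 6.44% of all genes lower and 3.37% higher. Those 7 were TRBV19, TRBV7-3, TRBV8-2, TRBV7-8, TRBV7-1, TRBV5-4 and TRAV36DV7. The same 7 were called lower in the authors' deposited table, which called 6.61% of its genes lower.

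The groups did not overlap for 12 members that were lower in DOX and 2 that were higher, against 15.6% and 14.6% of all tested genes, and overlapped for 22. The 12 were 9 beta V, 2 alpha V and 1 gamma V gene. The median log2 fold change was -0.69 over the 36 members and -0.00307 over all tested genes. By class it was -1.21 for beta V, -0.79 for alpha V, -0.34 for gamma V, -0.92 for gamma C and -0.04 for beta J. The sign was negative for 11 of 11 beta V, 7 of 9 gamma V, 3 of 4 alpha V and 4 of 6 beta J genes. Over all tested genes it was negative for 50.3%. In bulk RNA, fewer cells with a transcript and less RNA per cell cannot be told apart.

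Without DMSO 11, edgeR called 23 of the 36 members lower and 2 higher, against 25.7% and 23.7% of all genes in that fit. The medians were then -1.38 for beta V, -0.83 for alpha V, -0.56 for gamma V, -1.28 for gamma C and -0.11 for beta J, and -0.85 over the 36 members against -0.00807 over all genes. Taking DMSO 11 as the sole control, the DOX mean lay below it for 11 of 11 beta V genes but for 5 of 9 gamma V genes and 0 of 2 gamma constant genes. This rests on 1 control library, and the share over all genes was not computed. The lower DOX mean of beta V genes was thus found with and without DMSO 11, while that of the gamma constant genes was found against DMSO 23 and DMSO 35 and not against DMSO 11. The plot of fold changes gives both fits.

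**Figure D3:**
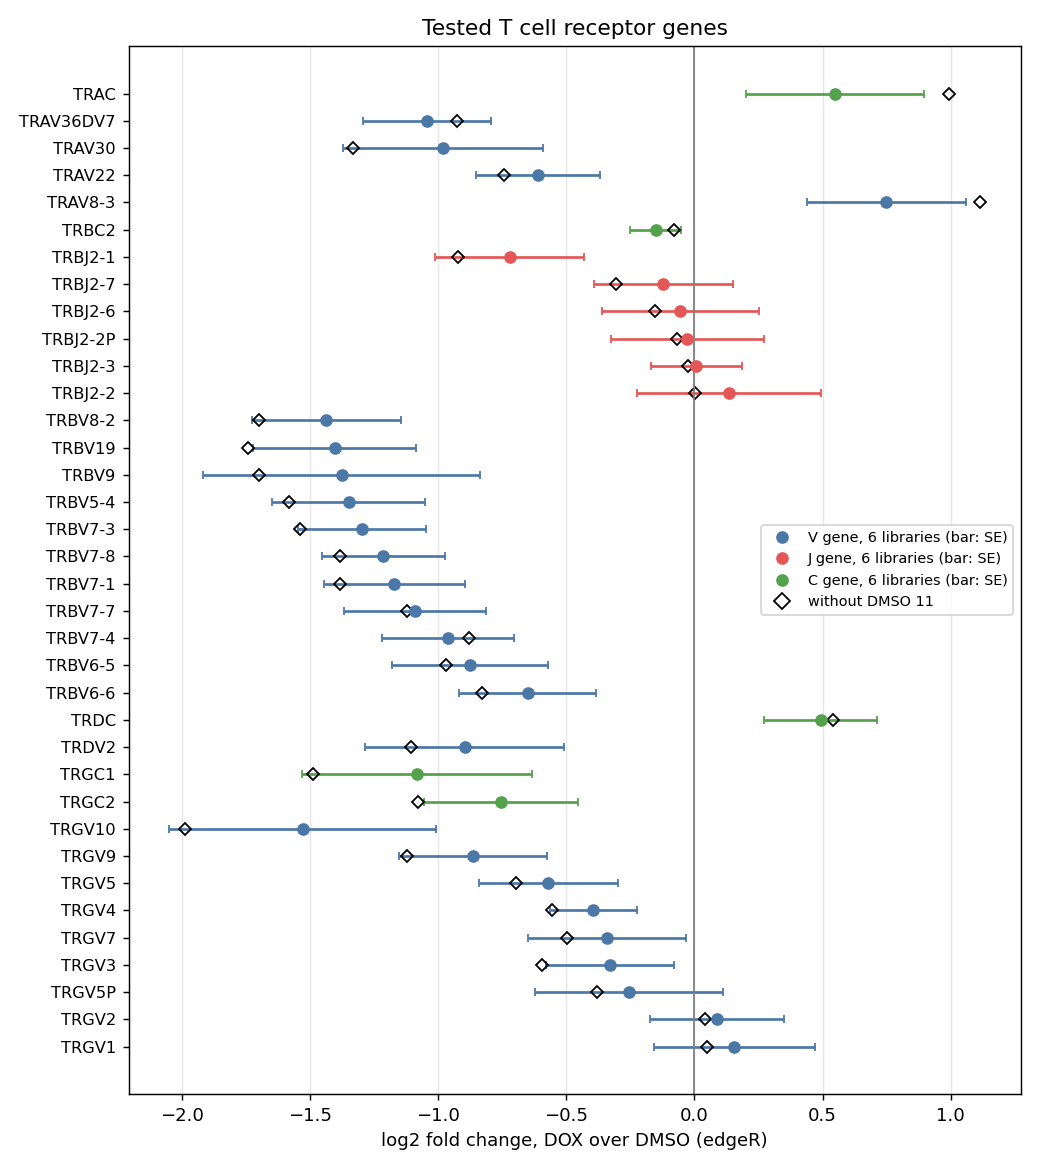
Log2 fold change, DOX over DMSO, from edgeR for the 36 tested members: filled points with SE bars use all 6 libraries, coloured by segment class, and open diamonds leave out DMSO 11. All 11 beta V genes lie below 0, the beta J genes lie near 0 except TRBJ2-1, and TRAC, TRAV8-3 and TRDC lie above 0.

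TRBV19 (ENSG00000211746), a functional V gene, was the most counted V gene of the line. It stood at 38.2, 102 and 100 CPM in DMSO 11, 23 and 35 and at 29.2, 30.8 and 31.0 in DOX 12, 24 and 36. DMSO 11 lay close to the DOX libraries but above all of them. The group means were 80.2 ± 36.3 and 30.3 ± 0.988 CPM (SD, n = 3), and the log2 fold change was -1.40 with an SE of 0.32. EdgeR gave an adjusted p of 0.0892 and DESeq2 one of 0.000361. Without DMSO 11 the edgeR value was -1.74 (edgeR adjusted p = 3.42e-13), and against DMSO 11 alone the difference was -0.33.

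In the other beta V genes that DESeq2 called, DMSO 23 was again the highest library and DMSO 11 the lowest of DMSO, at lower levels. TRBV7-3 stood at 8.75, 18.5 and 14.3 CPM in DMSO and 6.17, 5.22 and 5.53 in DOX, a log2 fold change of -1.30 with an SE of 0.25 (edgeR adjusted p = 0.0846, DESeq2 adjusted p = 0.000111). All 3 DMSO libraries were above all 3 DOX libraries, with DMSO 11 the nearest. TRBV8-2, annotated as a pseudogene, stood at 3.07, 6.98 and 5.31 against 2.08, 1.93 and 1.67 CPM (-1.44, SE 0.29, DESeq2 adjusted p = 0.000657). TRBV7-8 stood at 3.0, 5.05 and 3.99 against 1.52, 1.54 and 2.12 CPM (-1.21, SE 0.24, DESeq2 adjusted p = 0.0016). In both genes the groups did not overlap, so by DESeq2's calls a pseudogene of the locus fell alongside V genes that can encode a chain.

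TRBV7-1 stood at 1.96, 3.76 and 2.91 CPM in DMSO and 1.04, 1.51 and 1.29 in DOX (-1.17, SE 0.27, DESeq2 adjusted p = 0.0101). TRBV5-4 stood at 1.32, 2.74 and 2.06 against 0.901, 0.736 and 0.765 CPM (-1.35, SE 0.30, DESeq2 adjusted p = 0.00936). Both were lower in all 3 DOX libraries than in any DMSO library. The other 5 tested beta V genes, TRBV7-4, TRBV7-7, TRBV6-5, TRBV6-6 and TRBV9, had log2 fold changes from -1.38 (TRBV9) to -0.65 (TRBV6-6), and DESeq2 called none of the 3 it gave an adjusted p; TRBV9 and TRBV7-7 got none. Among the 11 tested beta V genes, groups overlapped for TRBV6-6 and TRBV9. Without DMSO 11, edgeR called all 11 lower, from -1.74 (TRBV19) to -0.83 (TRBV6-6).

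TRBC2, whose constant region ends every beta transcript spliced to it, overlapped between groups. It stood at 684, 619 and 565 CPM in DMSO and 560, 553 and 569 in DOX, means of 623 ± 59.7 and 561 ± 7.85 (SD, n = 3). The highest DOX library lay just above the lowest DMSO library. The log2 fold change was -0.15 with an SE of 0.10 (edgeR adjusted p = 0.352), and -0.08 without DMSO 11 (edgeR adjusted p = 0.364). DMSO 11, which was low for TRBV19, was the highest library for TRBC2.

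Ratios within a library do not depend on its scaling. Beta V counts per 100 TRBC2 counts were 9.20, 24.1 and 24.3 in DMSO 11, 23 and 35 and 8.04, 8.36 and 8.24 in DOX 12, 24 and 36. TRBV19 alone gave 5.59, 16.5 and 17.8 against 5.21, 5.56 and 5.45. Beta V RNA was thus lower relative to TRBC2 in every DOX library, narrowly so against DMSO 11. TRBV19 held 60.8%, 68.3% and 73.1% of beta V counts in DMSO and 64.8%, 66.5% and 66.1% in DOX, so its share overlapped between groups. The 95% Wilson intervals were 58.5% to 63.1% in DMSO 11, 66.9% to 69.7% in DMSO 23 and 71.7% to 74.4% in DMSO 35, and lay between 62.2% and 69.0% in DOX. They cover counting error only, and they set the 3 DMSO libraries apart from each other.

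**Figure D4:**
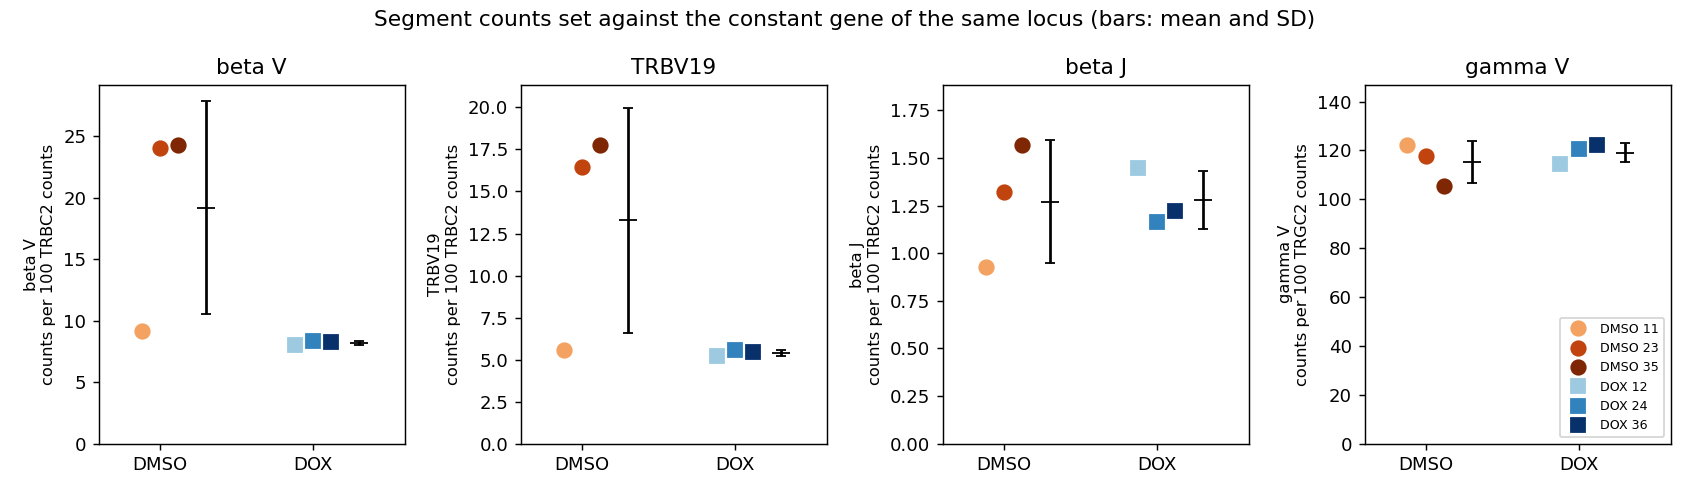
Counts of beta V, TRBV19 and beta J genes per 100 TRBC2 counts, and of gamma V genes per 100 TRGC2 counts, with 1 point per library (circles DMSO, squares DOX) and bars for mean and SD. Beta V counts per 100 TRBC2 counts were 24.1 and 24.3 in DMSO 23 and DMSO 35 and 8.04 to 9.20 in the other 4 libraries, while gamma V counts per 100 TRGC2 counts overlapped.

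The beta J segments of the set, all TRBJ2, lie just before TRBC2 and had no shared direction. TRBJ2-7 stood at 1.86, 2.44 and 3.38 CPM in DMSO and 3.01, 2.21 and 1.84 in DOX (-0.12, SE 0.27, edgeR adjusted p = 0.794). TRBJ2-3 stood at 1.75, 1.83 and 1.93 against 2.04, 1.79 and 1.70 CPM (0.01, SE 0.18, edgeR adjusted p = 0.984). The groups overlapped for both, and the sign of each turned when some single libraries were left out; without DMSO 11 the values were -0.31 and -0.03. TRBJ2-1, the TRBJ2 segment farthest from TRBC2, stood at 1.14, 2.10 and 1.69 against 0.970, 0.771 and 1.25 CPM (-0.72, SE 0.29, edgeR adjusted p = 0.167), and its value without DMSO 11 was -0.92 (edgeR adjusted p = 0.00315). TRBJ2-6 stood at 0.607, 0.949 and 0.575 against 0.866, 0.560 and 0.626 CPM (-0.05, SE 0.31, edgeR adjusted p = 0.923). All 4 overlapped between groups, and summed beta J counts per 100 TRBC2 counts were 0.925, 1.32 and 1.57 in DMSO and 1.45, 1.17 and 1.22 in DOX. No test of beta V against beta J genes was made.

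Both gamma constant genes split by library rather than by group. TRGC2 (ENSG00000227191), the main gamma constant gene, stood at 25.8, 63.1 and 67.0 CPM in DMSO and 32.4, 30.6 and 29.4 in DOX, means of 52.0 ± 22.8 and 30.8 ± 1.49 (SD, n = 3). DMSO 11 was below every DOX library. The log2 fold change was -0.75 with an SE of 0.30 (edgeR adjusted p = 0.166), and -1.08 without DMSO 11 (edgeR adjusted p = 6.78e-10). TRGC1 (ENSG00000211689) stood at 0.822, 3.15 and 3.25 against 1.11, 1.09 and 1.22 CPM, with -1.08 (SE 0.45) over all libraries and -1.49 without DMSO 11 (edgeR adjusted p = 2.51e-06). TRGC2 held 95.2% to 96.9% of gamma constant counts in the 6 libraries, with the limit on shared windows given above.

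TRGV10, the last V gene with counts before TRGC1, differed strongly among the DMSO libraries. It stood at 5.36, 28.6 and 29.8 CPM in DMSO and 8.42, 6.86 and 6.82 in DOX (-1.53, SE 0.52, edgeR adjusted p = 0.129), with a log2 fold change of -1.99 without DMSO 11 (edgeR adjusted p = 1.9e-11). DMSO 11 was the lowest of all 6 libraries. Its share of gamma V counts was 17.0%, 38.4% and 42.1% in DMSO and 22.7%, 18.6% and 19% in DOX, with 95% Wilson intervals of 14.7% to 19.6% in DMSO 11, 36.4% to 44.2% over the other DMSO libraries and 16.3% to 25.3% over DOX. TRGV3 and TRGV4, both functional V genes, took 65.0%, 50.7% and 45.8% together in DMSO and 61.7%, 65.5% and 65.6% in DOX. The makeup of gamma V RNA in DMSO 11 thus lay within or near the DOX range.

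TRGV3 stood at 8.93, 19.1 and 17.1 CPM in DMSO and 11, 12.3 and 12.7 in DOX (-0.33, SE 0.25, edgeR adjusted p = 0.414), and TRGV4 at 11.5, 18.6 and 15.2 against 11.9, 11.9 and 10.8 CPM (-0.39, SE 0.17, edgeR adjusted p = 0.189). Without DMSO 11 edgeR gave -0.60 and -0.56 for them, with adjusted p of 5.14e-05 and 0.000183. TRGV9, the V gene of the common circulating gamma-delta T cells, was the only gamma gene with no overlap, at 1.68, 3.52 and 3.04 against 1.25, 1.65 and 1.63 CPM (-0.87, SE 0.29, edgeR adjusted p = 0.125), with a log2 fold change of -1.12 without DMSO 11 (edgeR adjusted p = 6.07e-05). The other 5 tested gamma V genes ranged from -0.57 (TRGV5) to 0.16 (TRGV1). Gamma V counts per 100 TRGC2 counts were 122, 118 and 106 in DMSO and 115, 121 and 122 in DOX, so V and constant RNA of this locus kept a similar ratio in all 6 libraries.

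The alpha constant gene stood higher in DOX on average, as did 1 of the 4 tested alpha V genes, while the other 3 stood lower. TRAC (ENSG00000229164) stood at 1.61, 0.610 and 0.913 CPM in DMSO and 1.73, 1.65 and 1.18 in DOX (0.55, SE 0.35, edgeR adjusted p = 0.331), with overlap, with a log2 fold change of 0.99 without DMSO 11 (edgeR adjusted p = 0.00499). TRAV30 stood at 0.929, 2.91 and 2.54 against 1.07, 0.946 and 1.22 CPM (-0.98, SE 0.39, edgeR adjusted p = 0.164), with a log2 fold change of -1.33 without DMSO 11 (edgeR adjusted p = 2.18e-05). DMSO 11 was lowest for TRAV30 and highest among DMSO for TRAC, so it lay with DOX for both.

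TRAV36DV7, which can serve alpha or delta chains, was the alpha V gene that DESeq2 called. It stood at 1.64, 1.56 and 1.05 CPM in DMSO and 0.693, 0.665 and 0.696 in DOX (-1.04, SE 0.25, edgeR adjusted p = 0.0915, DESeq2 adjusted p = 0.0491). DMSO 11 was here the highest library, and the value without it was -0.92 (edgeR adjusted p = 0.00787). TRAV22 stood at 1.04, 1.59 and 1.25 against 0.935, 0.771 and 0.835 CPM (-0.61, SE 0.24), with a log2 fold change of -0.74 without DMSO 11 (edgeR adjusted p = 0.0170). TRAV8-3 went the other way, at 0.929, 0.576 and 0.406 in DMSO and 1.04, 1.02 and 1.15 in DOX (0.75, SE 0.31, edgeR adjusted p = 0.176), with a log2 fold change of 1.11 without DMSO 11 (edgeR adjusted p = 0.00439). For TRAV36DV7, TRAV22 and TRAV8-3 the groups did not overlap, at levels of 12 to 47 counts per library.

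TRDC (ENSG00000211829), the delta constant gene, stood at 1.5, 1.63 and 1.08 CPM in DMSO and 1.73, 2.24 and 1.95 in DOX (0.49, SE 0.22, edgeR adjusted p = 0.200). All 3 DOX libraries were above all 3 DMSO libraries, and the value without DMSO 11 was 0.54 (edgeR adjusted p = 0.0539). Its exons overlap those of AC244502.1 on the other strand in GENCODE 29, a gene with 673, 1283 and 1133 counts in DMSO and 450, 504 and 532 in DOX; TRDC is uncertain because the strand setting of the counting is not given in the sources used here. TRDV2, the V gene usually paired with TRGV9, stood at 0.429, 0.813 and 0.642 against 0.485, 0.210 and 0.313 CPM with overlap (-0.90, SE 0.39, edgeR adjusted p = 0.190), with a log2 fold change of -1.10 without DMSO 11 (edgeR adjusted p = 0.0184).

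The lists of other genes of the pathway are read against all tested genes, of which 26.0% had an unadjusted edgeR p under 0.05 and DESeq2 called 6.44% lower and 3.37% higher. Of 20 receptor partners and signalling genes, 18 were tested, edgeR called 0 (4 at an unadjusted p under 0.05), and DESeq2 called 1 lower and 1 higher, with a median log2 fold change of 0.01. Without DMSO 11, edgeR called 5 lower and 4 higher, against 25.7% and 23.7% of all genes, with a median of 0.01. PTCRA, the invariant chain that pairs with beta before alpha is made, stood at 6.80 CPM in DMSO and 4.11 in DOX (-0.73, SE 0.16, edgeR adjusted p = 0.0892, DESeq2 adjusted p = 0.0088), and LAT, an adaptor below the receptor, at 4.29 and 7.13 (0.73, SE 0.15, DESeq2 adjusted p = 0.0040). Of 16 genes of V(D)J recombination and end joining, 14 were tested and edgeR and DESeq2 each called 0 (1 at an unadjusted edgeR p under 0.05), with a median of -0.03. Without DMSO 11, edgeR called 1 lower and 5 higher, and the median was 0.02. The most expressed, HMGB2 and HMGB1, which bend DNA for the recombinase, stood at 812 and 725 CPM in DMSO and 919 and 788 in DOX, and were among the 5.

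Of 17 transcription factors known to bind enhancers of these loci or to act with such factors, 16 were tested. EdgeR called 0, and 5 had an unadjusted edgeR p under 0.05, against 26.0% of all tested genes. DESeq2 called 2 lower and 0 higher, against 6.44% and 3.37% of all genes. The median log2 fold change was -0.16. Without DMSO 11, edgeR called 8 lower and 3 higher, against 25.7% and 23.7% of all genes, with a median of -0.22. LEF1, a factor that bends DNA at the alpha enhancer, stood at 818 CPM in DMSO and 584 in DOX (-0.48, SE 0.14, DESeq2 adjusted p = 0.0232). LMO1, an adaptor without DNA binding of its own that is joined to the delta locus by a translocation in this line, stood at 157 and 123 CPM (-0.36, SE 0.07, DESeq2 adjusted p = 0.0024).

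The label of a T cell line was checked on 13 T lineage markers, which summed to 3578 to 3678 CPM in DMSO and 3333 to 3377 in DOX. TCF7 and LCK held the largest parts, at 1457 and 685 CPM in DMSO. CD1A and CD1E were near the floor, with means of 0.0583 and 0.0339 CPM in DMSO and 0.0930 and 0.0347 in DOX. Markers of 8 B lineage genes summed to 74.1 to 86.5 CPM over all libraries, mostly BLK, with MS4A1 at 0, and NK markers to 36.9 to 47.9, mostly NKG7, with NCR1 and KLRF1 at 0. The 8 myeloid and 5 erythroid markers stayed at or under 2.30 and 0.383 CPM. The 5 stromal markers summed to 2.71 to 7.43 CPM in DMSO and 9.49 to 10.2 in DOX, mostly COL1A1, with COL3A1 at 0. The part of the B, NK, myeloid and stromal sums in the values of the receptor genes was not tested.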

How the data were processed

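RNA of 3 DMSO and 3 doxycycline samples of RPMI-8402 cells was sequenced. The authors deposited a gene table of raw read counts and a table of their own comparison. Per the file headers the latter holds log2 fold changes with SE, p-values, the test's score and a mean signal over libraries normalised by size factors. The authors used, per the submitters' processing notes, STAR 2.5.2a, featureCounts, DESeq2 1.12.4 and hg19; the annotation release and strand setting are not given in the sources used here. Symbols came from the authors' deposited table by gene ID.

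Columns show the group and a number found in no label. Rows of 92 spike-ins held 0 counts. Every pair of libraries differed beyond sampling noise (mean chi-square per gene at least 4.57). Genes were filtered with filterByExpr, which a gene can pass through the group where it is high, TMM-scaled and tested by robust quasi-likelihood in edgeR 4.0.16 under R 4.3.3 (Benjamini-Hochberg adjustment over 15949 genes at 0.05). SE is the log2 fold change divided by the square root of F. Alternatives were DESeq2 1.42.0, limma 3.58.1 (voom), other scalings and filters, a threshold of 0.01, and each library left out; the authors' table was added after seeing the data. The tests were checked on simulated counts. The members and lists were chosen with earlier results of these data known.

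Members were matched to GENCODE 29 by gene ID for 201 rows and by symbol for 17, while 64 were unmatched, among them TRBV7-8 with 500 counts. That annotation is of another build, so it gave order, strand, length and sequence, and no coordinates are printed. Named members were all constant genes, the 4 most counted V, D and J members of a locus with a mean of at least 10 counts, and every called member; others were chosen after their values were seen.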

Additional observations from a re-analysis of the deposited data

How the results depend on the processing

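EdgeR called 5 genes, against 1383 with DESeq2, 1761 without a filter on low counts, 1362 in the authors' deposited table, 1 at a threshold of 0.01, and 0 to 8109 with each library left out, the highest without DMSO 11. Among the members it called 0, against 7 with DESeq2, 12 without the filter, 7 in the authors' deposited table and 0 to 26 with each library left out, the highest again without DMSO 11, where TRBV5-3 also passed the filter and 37 were tested; the 12 did not include TRBV19. Voom, other scalings, the stricter filter and a non-robust fit called 5 or 6 genes and 0 members. Summed beta V CPM gave a log2 ratio of -1.34 (DOX over DMSO), with -1.64 to -1.12 when single libraries were left out; gamma V gave -0.69 (-0.99 to -0.48), gamma C -0.77 (-1.10 to -0.54), alpha V -0.47 (-0.60 to -0.30) and beta J -0.12 (-0.25 to -0.015). The difference in the TRBV19 share of beta V counts, -1.59 percentage points, ran from -4.89 to 1.26, positive only without DMSO 35. Of 357 alternative values for 24 named members, 349 kept their direction. The 8 that turned were all beta J: TRBJ2-7 at 0.13 (without DMSO 35) and 0.03 (without DOX 36), in a range from -0.33, TRBJ2-3 at -0.03 (without DMSO 11), -0.067 (without DOX 12) and -0.0055 (without the filter), in a range up to 0.061, and TRBJ2-6 at 0.21 (without DMSO 23), 0.07 (without DOX 24) and 0.0058 (without DOX 36). The cause was not tested. Members with at least 1 count numbered 92, and with at least 10 counts 61. No paired analysis was possible because the count columns carry none of the replicate numbers of the labels. Intervals and floors cover counting error only, and at under 50 counts per library most alpha, delta and J genes could not show small differences.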

Other observations

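Members that did not pass the filter on low counts were left out of every test, and a few are given here as raw counts, chosen after their values were seen. The delta D segments are only a few bases long: TRDD1 is gaaatagt and TRDD2 is ccttcctac, 5′ to 3′, in GENCODE 29. TRDD1 had 8, 7 and 11 counts in DMSO 11, 23 and 35 and 1, 1 and 3 in DOX 12, 24 and 36, so the groups did not overlap. TRDD2 had 6, 4 and 5 counts in DMSO and 6, 0 and 3 in DOX, with overlap. The delta J segments TRDJ3 and TRDJ2 had 26 and 16 counts over all libraries, and TRDV1 had 20. TRBV30, the only beta V gene beyond TRBC2, had 54 counts, with 8 to 12 in DMSO and 7 to 9 in DOX. These numbers are too low to compare groups.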
